A study of Homo sapiens with 6 samples.

Results

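The 10 transcription factors described here set cells on the epithelial or the mesenchymal side of the epithelial-mesenchymal transition (EMT). They were chosen by name, with earlier results of these data known. SNAI1, SNAI2, ZEB1, ZEB2, TWIST1, TWIST2 and TCF4 are the 7 that favour the mesenchymal state, and GRHL2, OVOL1 and OVOL2 are the 3 that favour the epithelial state. Of the 10, 9 were among the 16623 genes with expression values, GRHL2 was not analysed here because it has no entry in those values, and 4 reached an FPKM of 1 in at least 1 library. FPKM counts a gene's fragments per kilobase of its transcript and relative to the size of the library. The libraries came from MDA-MB-231, an established triple-negative breast cancer line, cultured in adherent conditions. Cells received 100 nM or 200 nM PCI-24781, an inhibitor of histone deacetylases (HDACs), or its solvent DMSO, and were collected after 24 h or 48 h. Each of the 6 conditions had 1 library from 1 cell line, so no difference has a replicate check and no test of significance was made.

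In EMT, epithelial cells lose their junctions and apical-basal polarity and gain motility. SNAI and ZEB proteins are zinc finger repressors that bind E-box sequences in the promoters of junction genes such as CDH1, which encodes E-cadherin, and they recruit HDAC-containing corepressor complexes there. TWIST proteins and TCF4 are basic helix-loop-helix factors that bind E-boxes as dimers, whereas GRHL2 and the OVOL proteins sustain epithelial genes and oppose ZEB1.

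The E-box letters were looked for in promoter windows from RefSeq (assembly GRCh38.p14), which run from 250 bases before to 50 bases after a transcript start. CAGGTG or its reverse complement CACCTG, the form bound by SNAI and ZEB proteins, stood in 20.6% of all 35116 windows of 300 bases, and the wider form CANNTG, which includes both and reads the same on either strand, stood in 68.7%. Of the 10 factors, 4 had a window that was read (ZEB1, ZEB2, TWIST2 and TCF4), with 19 windows between them, of which 2 held CAGGTG or CACCTG, both of ZEB1. Windows of 3 genes are shown because they contrast ZEB1 with ZEB2 and with a junction gene of the kind these repressors act on. Capitals mark CANNTG, and each window is printed 5′ to 3′ on the strand of its gene.
ZEB1 (window 3 of 7, chr10:31318966-31319265, + strand): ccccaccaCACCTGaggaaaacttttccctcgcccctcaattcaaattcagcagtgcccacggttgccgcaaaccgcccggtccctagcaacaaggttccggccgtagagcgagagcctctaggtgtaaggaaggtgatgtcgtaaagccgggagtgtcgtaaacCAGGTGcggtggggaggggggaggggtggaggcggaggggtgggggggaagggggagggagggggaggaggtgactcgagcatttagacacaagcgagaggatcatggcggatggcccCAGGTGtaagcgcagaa
ZEB2 (chr2:144520070-144520369, - strand): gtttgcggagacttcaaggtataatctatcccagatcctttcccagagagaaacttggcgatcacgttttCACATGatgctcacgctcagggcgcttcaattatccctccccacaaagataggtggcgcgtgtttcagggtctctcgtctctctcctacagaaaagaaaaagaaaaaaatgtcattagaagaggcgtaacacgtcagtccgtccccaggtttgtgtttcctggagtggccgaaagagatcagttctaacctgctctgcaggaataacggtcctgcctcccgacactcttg
CLDN7 (window 2, chr17:7262429-7262728, - strand): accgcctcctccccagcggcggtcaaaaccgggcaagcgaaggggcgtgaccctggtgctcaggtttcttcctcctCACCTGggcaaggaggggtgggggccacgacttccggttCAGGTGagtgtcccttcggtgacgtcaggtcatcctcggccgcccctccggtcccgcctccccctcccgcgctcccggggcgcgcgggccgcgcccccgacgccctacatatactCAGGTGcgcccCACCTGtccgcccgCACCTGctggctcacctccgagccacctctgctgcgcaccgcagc
The ZEB1 window held 3 copies, with first bases at -242, -85 and 34 from the transcript start. At least 3 copies were present in 0.635% of all windows. The window shown held the most copies of the 7 ZEB1 windows. Window 1 held 1 copy and the others held 0, so this share does not describe ZEB1 as a whole. The ZEB2 window held no CAGGTG or CACCTG, and its single CANNTG match was CACATG at -180. The window of CLDN7, which encodes the tight junction protein claudin 7, held 5 copies and was picked after its matches were seen. Window 1 of CLDN7 held 0 copies. The only window read for CLDN1, another tight junction gene, held 0 copies and 0 matches of CANNTG. Among 32 epithelial genes listed as repressed by SNAI and ZEB factors, 19 had a window that was read, and 16 of their 28 windows (57.1%) held CAGGTG or CACCTG. These are matches of letters only, and occupancy by any factor was not measured.

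The line's own markers were checked first. Of 6 markers of a mesenchymal-like breast cancer line, 5 were above an FPKM of 1 in every library, with VIM (vimentin) at 1629.38 to 2053.39 and AXL, a receptor kinase, at 333.36 to 486.08, and the sixth, SPARC, was at 0.44 to 1.97. Of 8 luminal markers, CDH1 (0.24 to 0.39), ESR1 (0 to 0.04) and ESRP1 (0.02 to 0.27) were the 3 under 1 in every library. KRT19 (20.62 to 41.25), EPCAM (2.26 to 4.70), ERBB3 (3.54 to 5.72) and FOXA1 (1.28 to 1.75) were the 4 above 1 in every library, and GATA3 was at 0.70 to 1.03. The depth is not given with the values and was inferred from the steps between low FPKM values as about 16300000 to 18800000 fragments per library. The DMSO libraries differed from each other in 2.62% of genes past 2-fold, more than either PCI-24781 library of 48 h differed from the DMSO library of 48 h (0.469% at 100 nM and 0.266% at 200 nM). In CLDN1 and TNC, a tight junction and a matrix gene, the library labelled 100 nM 48 h lay nearer to that labelled DMSO 24 h than to that labelled DMSO 48 h, which was higher than both. Over all genes it was nearer to DMSO 48 h, with 54 genes past 2-fold against DMSO 48 h and 213 against DMSO 24 h. The junction gene JUP, at 12.87 in the library labelled 100 nM 48 h, also lay nearer to DMSO 48 h (13.92) than to DMSO 24 h (3.02). Time in culture, a property of a single library and an exchange of the labels DMSO 48 h and 100 nM 48 h cannot be told apart here. The labels were used as given, and every 48 h difference rests on them.

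ZEB1 was the most abundant of the factors by far (NCBI Gene ID 6935, chr10:31608101-31818742, + strand, in hg19, the build that the submitters' processing notes name). After 24 h its FPKM was 54.39 with DMSO, 61.73 with 100 nM and 50.02 with 200 nM, and after 48 h 56.68, 55.10 and 56.25 in the same order. In bulk RNA a change in the share of cells and a change in RNA per cell cannot be told apart. The highest of these was 1.23 times the lowest, and the treated libraries lay on both sides of the DMSO libraries. ZEB1 exceeded 90.6% to 92.7% of all genes in each library and made up 87.1% to 91.3% of the summed FPKM of the measured factors.

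ZEB2, its paralog, was far lower (NCBI Gene ID 9839, hg19 chr2:145141942-145277958, - strand). After 24 h its FPKM was 2.57 with DMSO, 2.15 with 100 nM and 1.22 with 200 nM, and after 48 h 1.80, 1.87 and 1.62. The lowest level was therefore in the 200 nM library of 24 h and the highest in the DMSO library of that time, with the 48 h libraries between them. The level of ZEB1 was 21.2 times that of ZEB2 in DMSO at 24 h and 41.0 times at 200 nM at 24 h. Antisense genes overlap the 5′ ends of ZEB1 and ZEB2 (ZEB1-AS1 and ZEB2-AS1), and whether the counting used strand is not given in the sources used here.

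SNAI2, which encodes SLUG (NCBI Gene ID 6591, hg19 chr8:49830236-49833999, - strand), had after 24 h an FPKM of 3.13 with DMSO, 4.07 with 100 nM and 4.48 with 200 nM. After 48 h the values were 2.71, 2.59 and 2.99. The 3 libraries of 48 h were all below the 3 of 24 h, and treated libraries exceeded DMSO at 24 h but lay on both sides of it at 48 h.

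SNAI1, which encodes SNAIL (NCBI Gene ID 6615, hg19 chr20:48599513-48605423, + strand), was the lowest of the 4 except in the 200 nM libraries, and varied most. After 24 h its FPKM was 0.29 with DMSO, 0.60 with 100 nM and 1.57 with 200 nM, and after 48 h 0.88, 0.68 and 1.99. The 2 libraries at 200 nM were the highest, and SNAI1 reached an FPKM of 1 only in them. The 6 values correspond to about 9, 18, 47, 26, 21 and 53 fragments, so counting error alone is wide. SNAI1 has a processed pseudogene, SNAI1P1, with which reads may be shared.

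**Figure D1:**
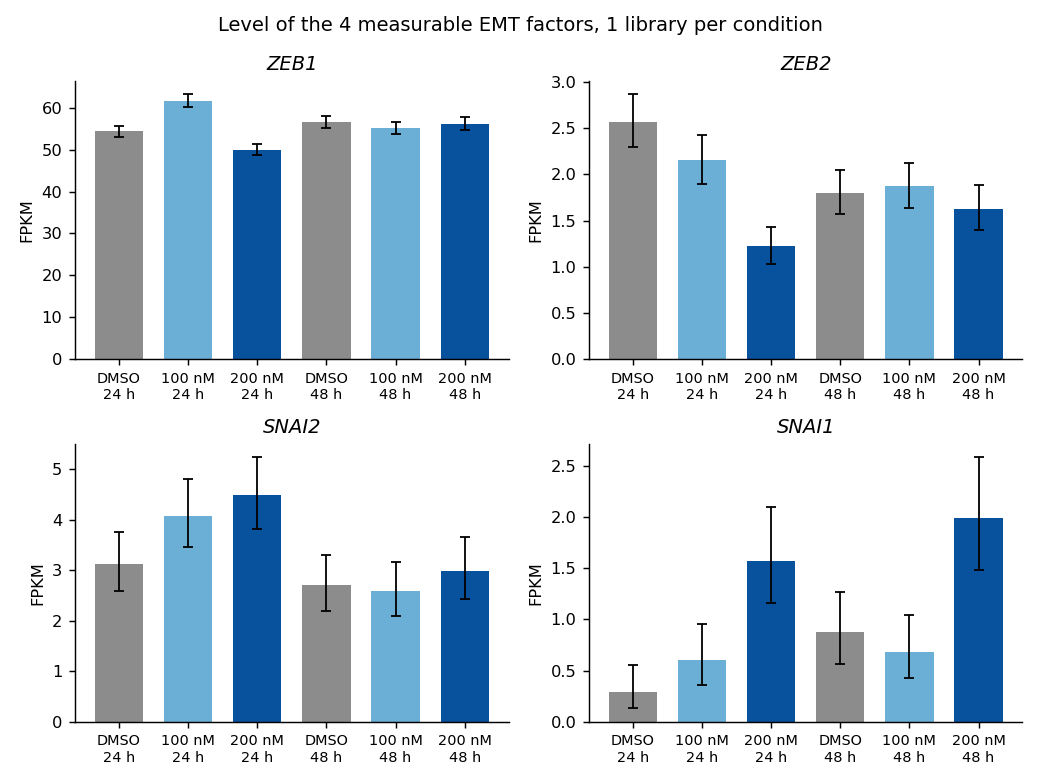
FPKM (linear axes from 0, a different range in each panel) of ZEB1, ZEB2, SNAI2 and SNAI1 in the 6 libraries, 1 bar per library, with DMSO in grey, 100 nM in light blue and 200 nM in dark blue. The error bars are 95% intervals for counting error only; ZEB1 stays between 50.02 and 61.73, and SNAI1 is highest in the 200 nM libraries, at 1.57 and 1.99.

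The other 5 measured factors were under an FPKM of 1 in every library. TWIST1 (NCBI Gene ID 7291, hg19 chr7:19155091-19157295, - strand), a driver of mesoderm and EMT programmes, was at 0.03 in both 24 h PCI-24781 libraries and in the 100 nM library of 48 h, and was listed at 0 in the others. Its paralog TWIST2 (NCBI Gene ID 117581, hg19 chr2:239756673-239832244, + strand) was at 0.05 in the 100 nM library of 48 h and listed at 0 elsewhere. TCF4 (NCBI Gene ID 6925, hg19 chr18:52889562-53303224, - strand), an E-protein partner of TWIST factors, was listed at 0 in DMSO at 24 h and was at 0.01 to 0.12 in the other 5 libraries.

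The epithelial-favouring repressors OVOL1 and OVOL2 were detected in 1 library each, OVOL1 (NCBI Gene ID 5017, hg19 chr11:65554505-65564690, + strand) at 0.02 in the 200 nM library of 48 h and OVOL2 (NCBI Gene ID 58495, hg19 chr20:18004796-18039832, - strand) at 0.08 in the 200 nM library of 24 h. The values of these 5 factors correspond to at most 5 fragments, and no fold is given for them. The order of levels was therefore ZEB1 above SNAI2 in every library, SNAI2 above ZEB2, and ZEB2 above SNAI1 except in the 200 nM libraries, where SNAI1 was above ZEB2. In those 2 libraries ZEB2 was at 1.22 and 1.62 and SNAI1 at 1.57 and 1.99, and their intervals for counting error overlapped. Those of SNAI2 and ZEB2 overlapped in DMSO at 24 h and at 100 nM and 48 h.

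To ask how treatment moved these factors, differences were taken as log2(FPKM + 1) in a PCI-24781 library minus that in the DMSO library of the same time, for genes that reached an FPKM of 1 in one or both libraries. The added 1 understates the change of low genes such as SNAI1. No factor passed 2-fold in any of the 4 comparisons. The share of all tested genes that did was 1.48% at 100 nM and 5.96% at 200 nM at 24 h, and 0.469% and 0.266% at 48 h. With 3 or 4 factors tested in each comparison, 0 called is near these shares and is no result about the factors. Past 1.5-fold lay SNAI1 and ZEB2 at 200 nM and 24 h (20.2% of all genes), SNAI1 at 200 nM and 48 h (1.99%), and none of the tested factors at 100 nM (6.83% of all genes at 24 h and 2.27% at 48 h) or between the DMSO libraries (10.5%).

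SNAI1 at 200 nM came closest to 2-fold, at 0.99 at 24 h and 0.67 at 48 h. At 24 h, 6.0% of tested genes were at least as far from 0, and at 48 h 1.3%. It was tested in these comparisons only through the libraries in which it was high. As a ratio without the added 1, from the inferred fragments and depths, SNAI1 at 200 nM was 5.42 times DMSO at 24 h (95% interval for counting error 2.63 to 12.6) and 2.28 times at 48 h (1.40 to 3.80). At 100 nM the ratios were 2.07 (0.884 to 5.24) and 0.79 (0.423 to 1.46), and both intervals include 1. SNAI1 was also 2.98 times higher in DMSO at 48 h than in DMSO at 24 h (1.35 to 7.22). On the log2(FPKM + 1) scale that difference between DMSO libraries was 0.54. With a pseudocount of 0.1, SNAI1 at 200 nM passed 2-fold at both times, by 2.10 and 1.09. Against the DMSO library of the other time, a reference chosen after seeing the data, with the pseudocount of 1, it stood at 0.45 and 1.21.

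Between doses, SNAI1 was higher at 200 nM than at 100 nM by 0.68 at 24 h and 0.83 at 48 h in log2(FPKM + 1), past 1.5-fold at both times. Across all genes, 5.24% passed 1.5-fold between the doses at 24 h and 7.97% at 48 h. SNAI1 was tested in these steps, too, only through the 200 nM libraries in which it was high, and they use no DMSO library. ZEB1, SNAI2 and ZEB2 did not pass 1.5-fold in either.

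ZEB2 at 200 nM and 24 h was lower than DMSO by 0.69 in log2(FPKM + 1), a difference of -0.69, and 14.5% of tested genes were at least as far from 0. As the same kind of ratio ZEB2 stood at 0.473 of DMSO (0.387 to 0.576). At 100 nM and 24 h the ratio was 0.836 (0.708 to 0.987), and at 48 h the ratios were 1.04 (0.862 to 1.26) and 0.903 (0.737 to 1.10). ZEB2 was lower in DMSO at 48 h than at 24 h by a difference of -0.35. At 200 nM and 24 h it passed 2-fold with a pseudocount of 0.1 (-1.02), and against the DMSO library of 48 h it stood at -0.33.

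SNAI2 differed from DMSO by 0.30 and 0.41 at 24 h, and by -0.05 and 0.10 at 48 h, in log2(FPKM + 1) at 100 nM and 200 nM. ZEB1 differed by 0.18 and -0.12 at 24 h and by -0.04 and -0.01 at 48 h. Between the DMSO libraries, 48 h against 24 h, SNAI2 differed by -0.15 and ZEB1 by 0.06. ZEB1 at 24 h was thus above DMSO at the lower dose and below it at the higher dose. Over the tested factors the median difference was 0.18, 0.14, -0.04 and 0.05 in the order 100 nM and 200 nM at 24 h, then at 48 h, beside 0.01, 0.01, -0.01 and 0.01 over all tested genes, and it was -0.15 between the DMSO libraries. SNAI1 entered these medians only at 200 nM, through the libraries in which it was high. Without it, SNAI2, ZEB1 and ZEB2 at 200 nM were at 0.41, -0.12 and -0.69 at 24 h. At 48 h they were at 0.10, -0.01 and -0.10. The signs of the medians 0.14 and 0.05 therefore rest on SNAI1.

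**Figure D2:**
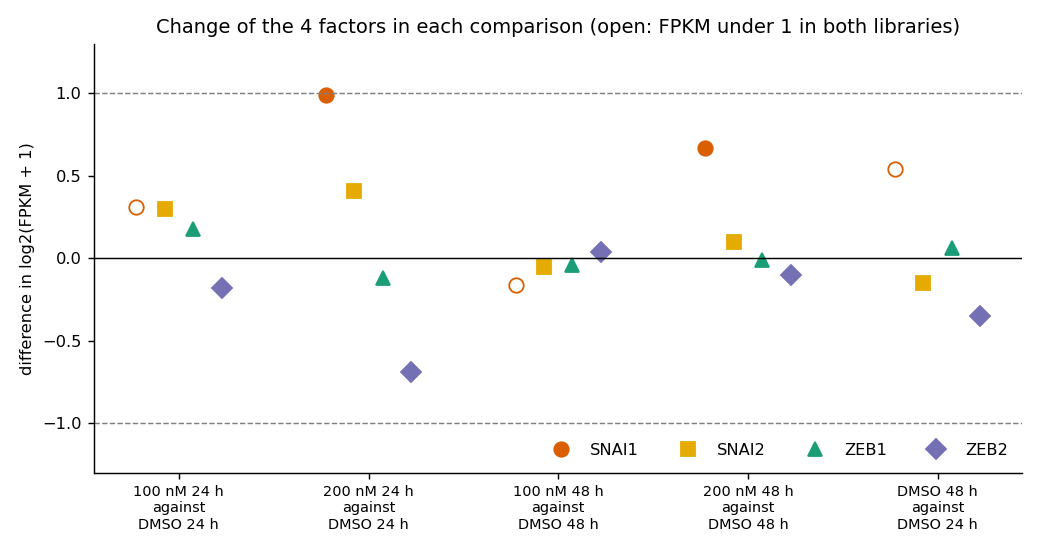
Difference in log2(FPKM + 1) (y axis) of SNAI1, SNAI2, ZEB1 and ZEB2 in the 4 comparisons of PCI-24781 with DMSO and between the DMSO libraries (x axis), 1 library per condition, with dashed lines at 2-fold and open symbols for an FPKM under 1 in both libraries. No symbol passes 2-fold; SNAI1 at 200 nM and 24 h is at 0.99 and ZEB2 at -0.69.

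**Figure D3:**
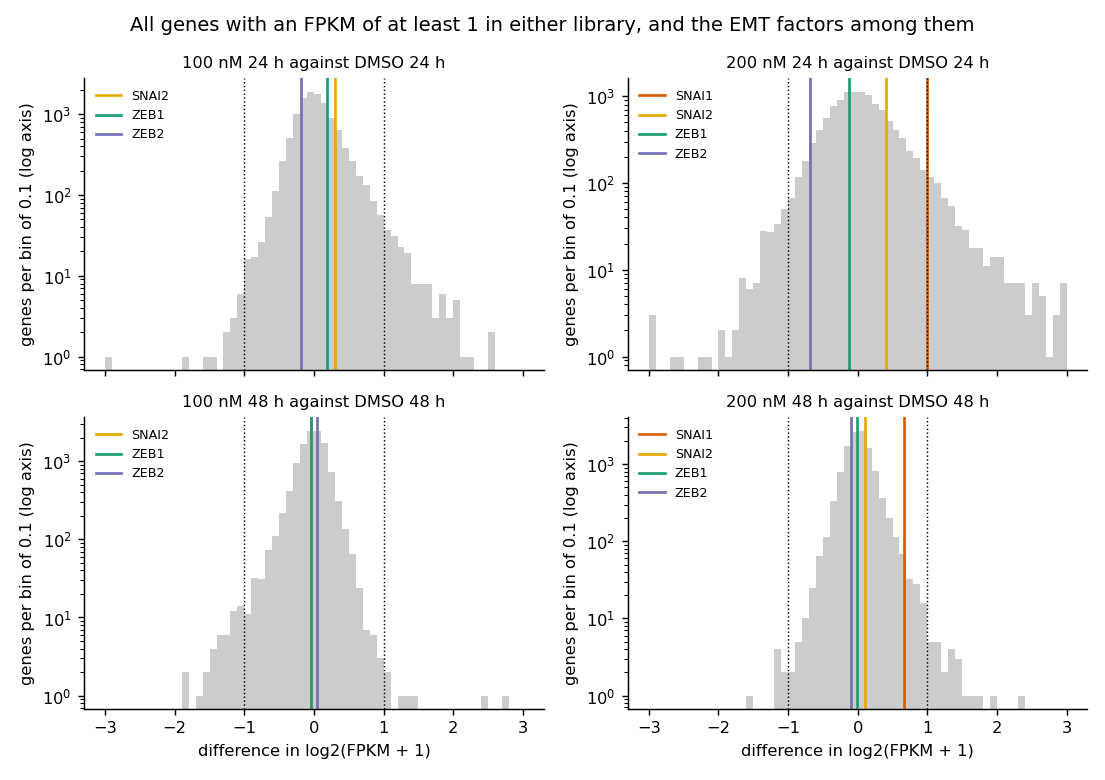
Number of genes per bin of 0.1 (log y axis) by difference in log2(FPKM + 1) (x axis) in the 4 comparisons with DMSO, with the tested factors as coloured lines and 2-fold as dotted lines. Values beyond 3 in either direction are counted in the outermost bins; the factors lie inside the 2-fold lines in every panel, and SNAI1 lies nearest to one, at 0.99.

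The genes whose pattern over the 6 libraries was most like that of each factor were sought among 11873 genes, by Euclidean distance between log2(FPKM + 1) values after subtracting each gene's mean. For SNAI1 they were PLOD2, a collagen lysyl hydroxylase (distance 0.131, where SNAI1's own distance from a flat line was 1.011), MAP1A and AKR1B1. The FPKM of PLOD2 after 24 h was 40.87 with DMSO, 55.26 with 100 nM and 91.03 with 200 nM, and after 48 h 65.20, 54.29 and 103.70. For SNAI2 they were POU3F2, UCHL3 and UTP3, for ZEB1 ABT1, RPL34 and CLDN12, and for ZEB2 they included PBK and CBFB. The added 1 shrinks the changes of SNAI1, whose FPKM was 0.29 to 1.99, the highest 6.86 times the lowest. Its likeness to PLOD2 and AKR1B1, which are far more abundant, therefore holds on this scale and not as a like fold. This likeness is a description over 6 libraries of 1 cell line.

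Epithelial genes repressed by SNAI and ZEB factors are where these proteins act, and 32 such genes had values. At 200 nM and 24 h, 20 were tested, 4 were higher past 2-fold and 1 was lower, with a median difference of 0.39, where 4.49% of all tested genes were higher and 1.48% lower. Of the 4, TJP3 and CDS1 were tested only through the 200 nM library in which they were high, with 0.09 and 0.07 in DMSO. The same holds for LLGL2, a polarity gene not past 2-fold, at 0.54 in DMSO and 1.93 at 200 nM. All of these lie above the list median and raise it, so 0.39 is in part set by the filter. At 100 nM and 24 h, 2 were higher and 0 lower of 17, with a median of 0.10 (all genes: 1.35% higher, 0.131% lower). At 48 h, 0 were higher and 1 (CLDN1) lower of 19 at 100 nM, and 1 (TJP3) was higher and 0 lower of 20 at 200 nM, with medians of -0.01 and 0.09. The shares of all genes were 0.0608% higher and 0.408% lower at 100 nM, and 0.206% higher and 0.06% lower at 200 nM. Between the DMSO libraries, 3 of 19 were higher at 48 h and 0 lower, the median was 0.46, and 2.49% of all genes were higher. Of the 3, TJP3 was tested only through the DMSO library of 48 h, in which it was higher. LLGL2 was too, and both raise the median of 0.46.

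CLDN1, which encodes the tight junction protein claudin 1, had after 24 h an FPKM of 4.60 with DMSO, 19.16 with 100 nM and 24.67 with 200 nM, and after 48 h 16.36, 4.81 and 31.01. It was high in 4 libraries and low in those labelled DMSO 24 h and 100 nM 48 h, so its 48 h difference at 100 nM rests on labels that may be exchanged. JUP, which encodes the junction protein plakoglobin, was at 3.02, 9.27 and 17.78 at 24 h and at 13.92, 12.87 and 18.40 at 48 h. TJP3, a tight junction scaffold, was at 0.09, 0.52 and 2.22 at 24 h and at 1.23, 0.39 and 3.80 at 48 h. AP1M2, a subunit of the epithelial AP-1B sorting adaptor, went the other way at 24 h, from 25.06 in DMSO to 15.81 and 8.59. CDS1, an enzyme of phospholipid synthesis, was the fourth gene higher at 200 nM and 24 h, by 1.90. CDH1 stayed under an FPKM of 0.4 in every library, and CLDN7 was at 3.38, 4.32 and 3.52 at 24 h and 6.15, 8.62 and 5.89 at 48 h.

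Of 32 mesenchymal effector genes, 23 were tested at 200 nM and 24 h, where 6 were higher past 2-fold and 1 was lower, with a median of 0.28 (all genes: 4.49% higher, 1.48% lower). At 100 nM and 24 h, 3 were higher and 1 lower of 23, with a median of 0.15 (all genes: 1.35% and 0.131%). At 48 h, 0 were higher and 1 (TNC) lower of 24 at 100 nM with a median of -0.09 (all genes: 0.0608% and 0.408%), and 0 were higher and 0 lower at 200 nM, with a median of 0.16 (all genes: 0.206% and 0.06%). Between the DMSO libraries, 4 were higher and 1 lower of 24, with a median of 0.35 (all genes: 2.49% and 0.131%).

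The 6 that were higher at 200 nM and 24 h were the matrix genes COL1A1, COL5A1, TNC, TGFBI and THBS1 and the growth factor receptor gene PDGFRB. TNC and PDGFRB were tested there only through the 200 nM library in which they were high, with 0.51 and 0.34 in DMSO. At 100 nM and 24 h, and between the DMSO libraries, both were likewise tested only through the library in which they were higher. In each case they raise the list median. TNC, which encodes tenascin C, was at 0.51, 4.10 and 5.20 at 24 h and at 4.36, 1.09 and 7.63 at 48 h. THBS1, which encodes thrombospondin 1, was at 12.40, 28.24 and 44.91 at 24 h and at 18.79, 11.10 and 32.94 at 48 h. Both were lowest or next to lowest in the 100 nM library of 48 h and the DMSO library of 24 h. MMP14, a membrane-bound matrix protease, was lower by a difference of -1.31 at 200 nM and 24 h, from 59.34 to 23.35. TAGLN, an actin-binding protein, was lower by a difference of -1.02 at 100 nM and 24 h.

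The 28 corepressors and other chromatin cofactors that SNAI, ZEB and TWIST proteins recruit were all tested, and none passed 2-fold. Of all tested genes, 1.48% and 5.96% did at 100 nM and 200 nM at 24 h, and 0.469% and 0.266% at 48 h. With 28 genes, 0 is near these shares and is no result about them. At 24 h, 22 of the 28 were below DMSO at 100 nM and 22 at 200 nM, with medians of -0.14 and -0.32. At 48 h, 9 were below at 100 nM and 17 at 200 nM, with medians of 0.06 and -0.04. Between the DMSO libraries 25 were below at 48 h, with a median of -0.23. Over all tested genes the medians were 0.01 and 0.01 at 24 h, -0.01 and 0.01 at 48 h, and 0 between the DMSO libraries. Medians this near 0 mean that over all genes about as many lay below as above. More of the corepressors than that lay below at 24 h, at 200 nM and 48 h and between the DMSO libraries. At 100 nM and 48 h fewer did. The exact share of all genes below was not calculated, and the cause of these differences was not tested. HDAC1, a target of the inhibitor, was at 68.19, 71.80 and 74.06 at 24 h and at 65.86, 72.13 and 66.16 at 48 h, and HDAC3 differed by 0.43 at 200 nM and 24 h. CTBP1, the corepressor that binds ZEB1, was at 40.10, 34.97 and 31.74 at 24 h and at 36.34, 40.96 and 33.64 at 48 h.

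**Figure D4:**
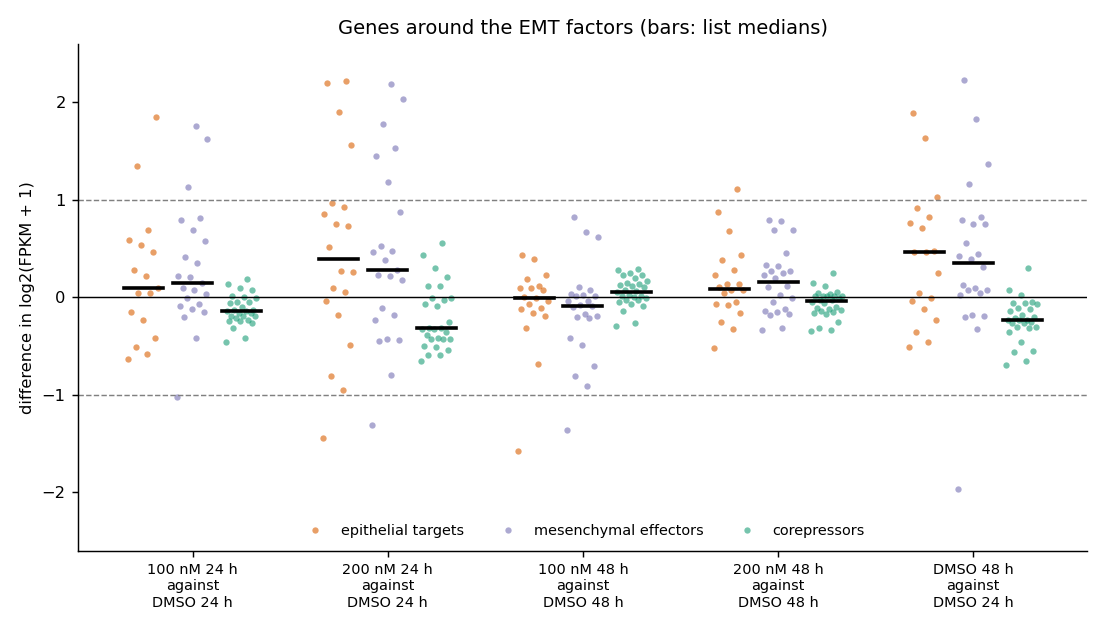
Difference in log2(FPKM + 1) (y axis) of each tested gene (points) of the epithelial targets, mesenchymal effectors and corepressors in the 4 comparisons with DMSO and between the DMSO libraries (x axis), with bars at list medians and dashed lines at 2-fold. At 200 nM and 24 h the medians are 0.39, 0.28 and -0.32. Between the DMSO libraries they are 0.46, 0.35 and -0.23. Those of the epithelial and mesenchymal lists include genes tested only through the library in which they were high.

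Of the other 5 lists, only that of the inducing signals had a gene past 2-fold in the 4 comparisons with DMSO. Across all genes, 1.48% and 5.96% passed it at 100 nM and 200 nM at 24 h, and 0.469% and 0.266% at 48 h. The absence of such genes from the other lists is near these shares and is no result about them. Of 27 ligands, receptors and other signals that induce the factors, 22 were tested, and at 200 nM and 24 h BMP2, a bone morphogenetic protein, and EPAS1, a hypoxia-inducible factor, were higher by 1.60 and 1.38. In DMSO, 48 h against 24 h, these genes differed by 1.21 and 0.33, and 2 of the 22, BMP2 and the cytokine gene IL6 (2.12), were higher past 2-fold. Over all genes, 4.49% were higher past 2-fold at 200 nM and 24 h, and 2.49% between the DMSO libraries. With 22 genes tested, 2 is too few to set apart from these shares and is no result about the list. The list median was 0.16 and 0.17 at 24 h, 0.03 and 0.10 at 48 h, and 0.21 between the DMSO libraries. Of 18 tested EMT-linked factors outside the 10, the most abundant was FOSL1, an AP-1 component, at 548.45, 439.64 and 318.45 at 24 h and 428.43, 527.54 and 281.31 at 48 h. It was lowest in the 200 nM library at each time, by differences of -0.78 and -0.61, and it differed by -0.36 between the DMSO libraries. The median of these factors was 0.09 and 0.18 at 24 h, 0.05 and -0.06 at 48 h, and -0.02 between the DMSO libraries. Between the latter SOX4 alone passed 2-fold (1.26), beside 2.62% of all genes.

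Paralogs and E-protein partners of the 10 had 13 of 15 with values, of which 4 to 6 were tested, with medians from -0.07 to 0.15 against DMSO and of -0.20 between the DMSO libraries. TCF3 and TCF12, E-proteins that pair with TWIST1, were at 40.11 to 52.70 and at 14.90 to 19.90. Their inhibitor ID1 was at 76.82 to 111.66, highest at 200 nM and 24 h. Epithelial transcription and splicing regulators (5 to 8 tested) had medians from -0.07 to 0.16 against DMSO and of 0.14 between the DMSO libraries. Between the latter ELF3 was higher past 2-fold (1.06), beside 2.49% of all genes, and was tested only through the DMSO library of 48 h. GRHL1, the paralog of GRHL2, was at 0.47 to 1.11. Of 29 kinases, ubiquitin ligases and deubiquitinases that act on the SNAI, ZEB and TWIST proteins, 26 were tested, and the medians were from -0.07 to 0.01 against DMSO and -0.04 between the DMSO libraries.

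Over the 8 lists together, 6 of 144 tested genes passed 2-fold at 100 nM and 24 h (4.17%, beside 1.48% of all genes) and 14 of 147 at 200 nM and 24 h (9.52%, beside 5.96%). At 48 h, 2 of 150 (1.33%, beside 0.469%) and 1 of 151 (0.662%, beside 0.266%) did. Between the DMSO libraries, 12 of 149 did (8.05%, beside 2.62%). The lists were chosen with earlier results of these data known. A list share above that of all genes could come from this choice and is no result about the lists. The DMSO library of 24 h is shared by both comparisons of 24 h and by the comparison between the DMSO libraries, so their errors are shared. With the DMSO library of the other time as reference, 4 list genes (100 nM) and 9 (200 nM) passed 2-fold after 24 h. After 48 h, 11 (100 nM) and 23 (200 nM) did. Calls over all genes then fell from 170 to 66 (100 nM) and from 695 to 245 (200 nM) after 24 h. They rose from 54 to 213 (100 nM) and from 31 to 602 (200 nM) after 48 h. The list counts moved the same way as those over all genes, so a rise was not confined to the lists. Shares with this reference were not calculated, so the sizes of the 2 rises are not compared.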

How the data were processed

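RNA-seq of MDA-MB-231 cells gave 6 libraries, 1 for each condition. The deposited FPKM values per gene were calculated by the authors and rounded. The submitters' processing notes name Bowtie2, RSEM and hg19, with no role, and versions are not given in the sources used here. Differences were taken as log2(FPKM + 1) between libraries, for genes that reached an FPKM of 1 in one or both libraries, and a gene was called at 2-fold. No count test was run, because the values are FPKM, and no p-value was calculated, with 1 library per condition. It is not stated whether the libraries came from separate cultures.

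The 10 factors, the 8 lists around them (206 genes, 199 with values) and the comparisons were chosen with earlier results of these data known. Named genes were all 10 factors, list genes past 2-fold in a comparison with DMSO, the 3 most abundant genes of each list, and the 3 genes most like each measured factor. A gene covered by this rule is not reported here. CDH1, CLDN7, LLGL2, CTBP1, TCF12, GRHL1, IL6, SOX4 and ELF3 were chosen after their values were seen.

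Fragments were inferred from FPKM steps of single-transcript genes, using transcript lengths from GENCODE release 29, with 256 to 302 genes per library. They are approximate, and 95% intervals and ratios from them cover counting error only. Alternatives were pseudocounts of 0.1 and 0.01, other filters, TPM, median-of-ratios factors, a 1.5-fold threshold and other DMSO references. Python 3.11.15, numpy 2.4.6, pandas 2.3.3, scipy 1.17.1 and matplotlib 3.10.9 were used.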

Additional observations from a re-analysis of the deposited data

Results flagged for a closer look

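At 100 nM, several genes lay on one side of DMSO at 24 h and on the other at 48 h, in log2(FPKM + 1), with 1 library per condition. The difference between the times was not tested. Among the factors, ZEB1 was at 0.18 and -0.04, SNAI2 at 0.30 and -0.05 and ZEB2 at -0.18 and 0.04. Among the target and effector genes, CLDN1 was at 1.85 and -1.58, JUP at 1.35 and -0.11, TNC at 1.76 and -1.36, TGFBI at 1.62 and -0.91 and THBS1 at 1.13 and -0.71. TAGLN had the opposite order, at -1.02 and 0.82. Between the DMSO libraries, 48 h against 24 h, CLDN1 differed by 1.63, TNC by 1.83 and TAGLN by -1.97, and the part of the reference library, or of an exchange of the labels DMSO 48 h and 100 nM 48 h, in these differences was not tested.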

How the results depend on the processing

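The number of factors past 2-fold, 0 in each comparison with DMSO, became 2 at 200 nM and 24 h with a pseudocount of 0.1, with one of 0.01 and with a 1.5-fold threshold (SNAI1 and ZEB2 each time), and 1 with TPM (SNAI1). At 200 nM and 48 h it became 1 (SNAI1) with either smaller pseudocount, with 1.5-fold and with the DMSO library of the other time, an alternative chosen after seeing the data. SNAI1 at 200 nM and 24 h was 2.10 and 2.40 with the smaller pseudocounts, 1.49 with TPM and 0.45 with the other DMSO library, and ZEB2 there was -1.02, -1.07 and, with that library, -0.33. SNAI1 at 200 nM and 48 h was 1.09, 1.17 and 1.21 with the smaller pseudocounts and the other DMSO library. Of 112 recomputed differences of the 4 factors, 8 crossed 2-fold and 9 changed sign. List genes past 2-fold went from 6 to 18 (1.5-fold) and 1 (mean of the DMSO libraries) at 100 nM and 24 h. At 200 nM and 24 h they went from 14 to 22 (0.1), 25 (0.01), 40 (1.5-fold) and 9 (other DMSO library). At 100 nM and 48 h they went from 2 to 6 (0.1), 6 (0.01), 11 (1.5-fold), 1 (mean of the DMSO libraries) and 11 (other DMSO library). At 200 nM and 48 h they went from 1 to 3 (0.1), 3 (0.01), 2 (TPM), 10 (1.5-fold), 9 (mean of the DMSO libraries) and 23 (other DMSO library). Over all genes, the number past 2-fold went from 170 to between 33 and 784 at 100 nM and from 695 to between 245 and 2351 at 200 nM after 24 h, and from 54 to between 24 and 261 and from 31 to between 20 and 602 after 48 h. Against the DMSO library of the other time, genes higher and lower went from 155 and 15 to 7 and 59 at 100 nM and 24 h, and from 7 and 47 to 184 and 29 at 100 nM and 48 h. The median-of-ratios factors and both other filters on low values moved neither the number of factors nor that of list genes past 2-fold by over 1.5 times. Of the 4 factors with an FPKM of at least 1 in a library, SNAI1 had the fewest fragments, about 9 to 53, and depth leaves TWIST1, TWIST2, TCF4, OVOL1 and OVOL2 without a usable fold. No replicate could be left out, with 1 library per condition. No paired analysis was possible because the groups share a single replicate number and the results come from no test, and a fit of dose with time as a block was not run.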
